A study of Mus musculus with 6 samples.

Results

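The Krüppel-like factor genes examined here are Klf2, Klf3, Klf4, Klf5, Klf6, Klf7, Klf9, Klf10, Klf13 and Klf15, matched by symbol to gene IDs of the deposited FPKM table. All 10 were found among its 55335 genes and all 10 passed the filter that left 12860 genes for testing, a mean of at least 1 FPKM over the libraries. FPKM is the number of fragments normalised to transcript length and to the size of the library, so levels of different genes can be set side by side. Polyadenylated RNA came from lysates of mouse sciatic nerve at postnatal day 14, an age at which Schwann cells are laying down myelin. The control group (3 libraries) carried homozygous floxed RhoA alleles without Cre (RhoAfl/fl). The icKO group (3 libraries) carried the same floxed alleles together with the tamoxifen-inducible recombinase ChATCreERT2, which is expressed where choline acetyltransferase is made, in motoneurons among others. The cell bodies of those motoneurons lie in the spinal cord, outside the tissue sampled, so most RNA in the lysate came from cells in which the driver is not expected to act. The labels name no drug schedule, sex or litter, do not say whether control mice received the inducing drug, and leave it unsaid whether each library is from another animal. The p-values therefore measure only the spread between these libraries, part of which may be technical.

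Krüppel-like factors are transcription factors that bind GC-rich and CACCC sequences through a run of zinc fingers at the end of the protein, while the rest of the protein differs between members and recruits activators or repressors. Several of the genes are switched on by steroid and thyroid hormones, with Klf9, Klf13 and Klf15 known as hormone-induced, and others respond within minutes to growth factors, flow or injury, with Klf2, Klf4 and Klf6 known as immediate early genes. In peripheral nerve they are made by glia, fibroblasts, vessel cells and immune cells alike, so a level in lysate is a sum over cell types, and fewer cells of a type cannot be told apart from less RNA per cell.

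The depth, estimated from the smallest steps of the FPKM values, was 17200000 to 20600000 fragments per library, so 1 FPKM of a 1 kb transcript rested on about 17.2 to 20.6 fragments. Rhoa, the floxed gene, was at 36.5, 39.0 and 38.0 FPKM across the control libraries against 36.4, 33.6 and 33.2 FPKM across the icKO libraries (Benjamini-Hochberg adjusted p = 0.195 by limma), and Chat had 0.012 FPKM in a single control library and was listed at 0 in the rest. Control replicate 2 had 46.1 FPKM of Xist and no other library more than 0.028 FPKM, while the Y-linked Ddx3y was at 0 in control replicate 2 and at 12.5 FPKM or more elsewhere, so only the control group held both sexes. The summed FPKM of 15 skeletal muscle markers was 1481 in control replicate 1 and 1672 in icKO replicate 3, against 289 and 391 in the other control and 20.9 and 36.3 in the other icKO libraries. Schwann cell markers were abundant in every library, with a summed level of at least 11599 FPKM over 7 genes. Most of this was Pmp22, with at least 9247 FPKM in each library.

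To show the sequences in which regulation of these genes begins, the stretch from 250 bases before to 50 bases after the start of transcription was taken from RefSeq (build GRCm38.p6) for the 8 members that the table held; Klf5 and Klf10 were not matched. Printed here are the hormone-induced members, among them Klf15 and Klf9 with the largest differences of the 10 genes, and Klf2, the most abundant immediate early member in icKO nerves. Each runs 5′ to 3′ on the strand of the gene. Capitals mark the short form of the cAMP response element, TGACG on either strand, and in Klf2 also a MEF2 site. Klf9 lies on the plus strand at chr19:23140976-23141275, Klf13 on the minus strand at chr7:63938866-63939165, Klf15 on the plus strand at chr6:90462326-90462625 and Klf2 on the plus strand at chr8:72318812-72319111.
Klf9: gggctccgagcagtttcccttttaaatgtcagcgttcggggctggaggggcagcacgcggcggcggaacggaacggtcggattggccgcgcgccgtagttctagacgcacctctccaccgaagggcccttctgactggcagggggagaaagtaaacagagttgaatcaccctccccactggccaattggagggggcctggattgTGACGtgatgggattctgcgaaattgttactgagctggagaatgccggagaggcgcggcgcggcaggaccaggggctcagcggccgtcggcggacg
Klf13: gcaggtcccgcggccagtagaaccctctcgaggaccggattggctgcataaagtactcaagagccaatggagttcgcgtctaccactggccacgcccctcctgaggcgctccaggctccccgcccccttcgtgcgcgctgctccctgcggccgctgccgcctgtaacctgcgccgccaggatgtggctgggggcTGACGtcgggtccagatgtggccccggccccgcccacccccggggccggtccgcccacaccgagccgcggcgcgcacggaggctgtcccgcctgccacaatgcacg
Klf15: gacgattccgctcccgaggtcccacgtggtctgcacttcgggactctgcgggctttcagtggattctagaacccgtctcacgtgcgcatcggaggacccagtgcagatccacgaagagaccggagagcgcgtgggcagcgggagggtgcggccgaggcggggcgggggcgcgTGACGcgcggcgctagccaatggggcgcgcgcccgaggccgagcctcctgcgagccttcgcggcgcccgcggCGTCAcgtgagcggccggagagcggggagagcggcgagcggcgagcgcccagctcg
Klf2: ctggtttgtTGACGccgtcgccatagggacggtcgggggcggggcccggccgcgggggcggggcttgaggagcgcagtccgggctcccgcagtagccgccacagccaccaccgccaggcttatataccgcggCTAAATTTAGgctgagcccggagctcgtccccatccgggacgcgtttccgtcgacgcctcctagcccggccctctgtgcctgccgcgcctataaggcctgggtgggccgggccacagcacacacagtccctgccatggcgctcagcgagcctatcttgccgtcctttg

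The short cAMP element TGACG was found in 6 of the 8 member promoters (Klf2, Klf3, Klf4, Klf9, Klf13 and Klf15), and in 20.8% of all 32851 promoters in the RefSeq table. Counted from the transcription start, it began at position -46 in Klf9, at -56 in Klf13, at -78 and, on the other strand, at -6 in Klf15, and at -241 in Klf2. The full cAMP element, which continues the short form with TCA, was in none of the 8 windows and in 1.79% of all. No window held the full glucocorticoid response element (AGAACA, NNN, then TGTTCT), found in 0.00913% of all promoters, or AGAACA alone on either strand, found in 19.0%. Nor did any hold a CArG box, the site of serum response factor (1.63% of all). The MEF2 site, searched by its consensus on both strands, was in 0.557% of all promoters and in Klf2 alone among the members, as CTAAATTTAG at position -118. The motif that Krüppel-like and Sp factors themselves bind was frequent. The GC box GGGCGG was in 7 of the 8 windows (all but Klf9) against 35.7% of all promoters, and the CACCC box in 6 of 8 (all but Klf4 and Klf6) against 57.5%. In Klf13 a CACCC box overlapped a GC box by its first base. The member windows were rich in G and C, with a median of 70.7% against 52.7% over all promoters, and the part of base composition in these shares was not tested. Letters absent from a window say nothing of sites elsewhere.

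In icKO nerves 9 of the 10 genes rose, and the remaining member, Klf3, did not pass the test. Over all tested genes 42.9% were called at a Benjamini-Hochberg adjusted p under 0.05, 20.8% higher and 22.1% lower. In the 9 genes that rose, every icKO library lay above every control library, which held for 28.4% of all tested genes (57.2% without overlap in either direction). The median difference of the 10 members was 0.91 on the log2(FPKM + 1) scale, against -0.01 over all tested genes. Klf9, Klf10, Klf13 and Klf15 rose by at least 1 on this scale, as did 3.52% of all tested genes, and Klf9 and Klf15 by at least 2, as did 0.412%.

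**Figure D1:**
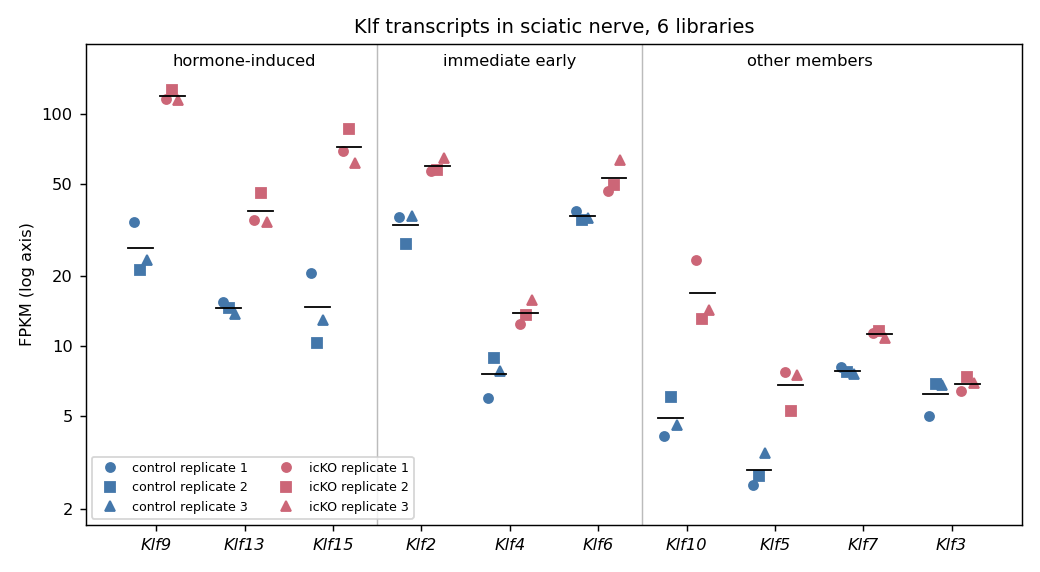
FPKM of the 10 Klf genes on a log axis in each of the 3 control (blue) and 3 icKO (red) libraries, with symbols for replicates 1, 2 and 3 and a black line at each group mean. The icKO points lie above the control points in every gene but Klf3, with the widest gaps in Klf9 and Klf15.

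Klf9, a repressor induced by glucocorticoid and thyroid hormone in many tissues, was at 34.1, 21.3 and 23.6 FPKM in control replicates 1, 2 and 3 and at 116, 127 and 115 FPKM in icKO replicates 1, 2 and 3. Every icKO library stood at least 3.36-fold above the highest control library, which was control replicate 1. The mean rose 4.52-fold, from 26.3 ± 6.83 to 119 ± 7.01 FPKM (SD, n = 3 each). Its log2 difference was 2.16 (SE 0.17, Benjamini-Hochberg adjusted p = 0.0006 by limma). It ranked 36th by size among the 2670 genes called higher.

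Klf15, which drives amino acid breakdown in muscle and liver and is a direct glucocorticoid target there, had the largest fold of the family. Its level was 20.8, 10.3 and 13.0 FPKM across the control libraries against 69.4, 86.4 and 61.2 FPKM across the icKO libraries. Control replicate 1 was again the highest control, 2.01-fold above the lowest, yet the lowest icKO library stood 2.95-fold above it. The log2 difference was 2.27 (SE 0.25, Benjamini-Hochberg adjusted p = 0.00119 by limma), a 4.93-fold rise of the mean. Skeletal muscle is a known site of Klf15 expression, and control replicate 1 was the control library richest in muscle markers, while icKO replicate 3, the icKO library richest in them, had the lowest Klf15. Without both libraries the log2 difference of Klf15 was 2.64 and that of Klf9 was 2.38. The part of muscle in these levels was not tested.

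Klf13, a close relative of Klf9 that recruits the Sin3a corepressor, was nearly constant among control libraries at 15.5, 14.6 and 13.8 FPKM and stood at 34.9, 45.5 and 34.1 FPKM across the icKO libraries. The mean rose 2.60-fold, with a log2 difference of 1.31 (SE 0.13, Benjamini-Hochberg adjusted p = 0.000811 by limma). In all of Klf9, Klf13 and Klf15, icKO replicate 2 was the highest and icKO replicate 3 the lowest icKO library, and control replicate 1 the highest control library. Within each library the level of Klf15 was 0.483 to 0.608 of that of Klf9 in control and 0.534 to 0.679 of it in icKO nerves, ranges that overlap. The ratio of Klf9 to Klf13 was 1.46 to 2.20 in control and 2.80 to 3.36 in icKO nerves, without overlap.

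Among the immediate early members the fold changes were smaller. Klf2, a flow-induced factor of quiescent endothelium that also acts in lymphocytes, was at 36.0, 27.6 and 36.4 FPKM across the control libraries against 57.0, 57.6 and 64.7 FPKM across the icKO libraries. The rise of the mean was 1.79-fold, a log2 difference of 0.83 (SE 0.13, Benjamini-Hochberg adjusted p = 0.00317 by limma). Its highest control and its lowest icKO library were separated by a factor of 1.57.

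Klf4, a factor of epithelial barrier and vessel cells and part of the classical reprogramming mix, was lower, at 5.99, 8.88 and 7.79 FPKM across the control libraries against 12.5, 13.7 and 15.7 FPKM across the icKO libraries. It rose 1.85-fold, with a log2 difference of 0.81 (SE 0.15, Benjamini-Hochberg adjusted p = 0.00603 by limma). The ratio of Klf2 to Klf4 within a library, 3.10 to 6.01 in control and 4.11 to 4.57 in icKO nerves, overlapped between the groups.

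Klf6, an injury-responsive factor, was at 38.3, 35.0 and 35.6 FPKM across the control libraries against 46.6, 49.6 and 63.2 FPKM across the icKO libraries. The groups did not overlap, and icKO replicate 3 stood apart as the highest. The log2 difference of 0.53 (SE 0.13) passed limma at a Benjamini-Hochberg adjusted p of 0.0156, and Klf6 was the member whose call depended on single libraries, with an adjusted p of 0.0546 both without control replicate 2 and without control replicate 3. In Klf2, Klf4 and Klf6 alike the highest icKO library was replicate 3 and the lowest replicate 1, another order than in the hormone-induced members. The lowest places rest in part on near ties. In Klf2, icKO replicates 1 and 2 were at 57.0 and 57.6 FPKM. Replicates 1 and 3 were at 115.6 and 114.7 FPKM in Klf9 and at 34.9 and 34.1 FPKM in Klf13. Replicate 3 was also the muscle-rich icKO library, and whether this bears on the order was not tested.

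**Figure D2:**
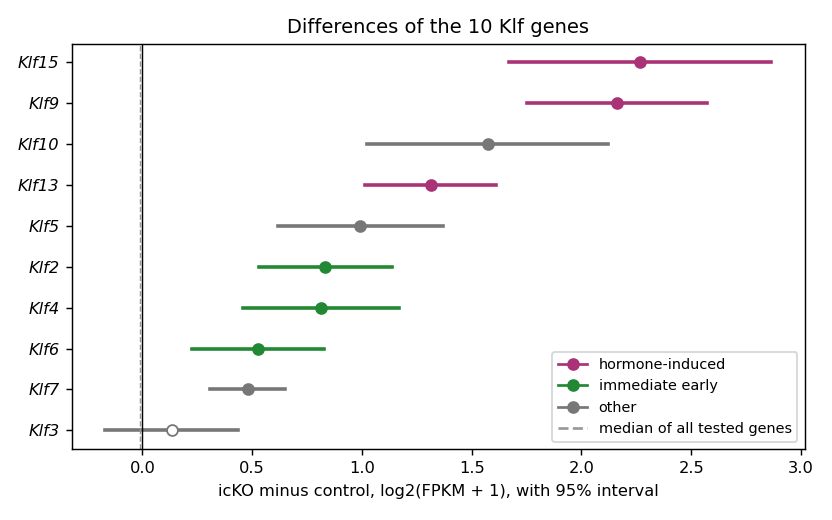
Difference between icKO and control nerves of each Klf gene on the log2(FPKM + 1) scale, with its 95% interval from limma, coloured by class; the open circle did not pass the test. The largest differences are those of Klf15 (2.27) and Klf9 (2.16), the interval of Klf3 spans 0, and the dashed line marks the median of all tested genes at -0.01.

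Klf10, first described as an early gene induced by TGF-beta, was a low member in control nerves and rose 3.46-fold. It was at 4.09, 6.06 and 4.57 FPKM across the control libraries against 23.5, 13.0 and 14.3 FPKM across the icKO libraries. Its icKO libraries were the most uneven of the family, with replicate 1 at 1.80 times the level of replicate 2, and still each lay at least 2.15-fold above the highest control. The log2 difference was 1.57 (SE 0.23, Benjamini-Hochberg adjusted p = 0.00284 by limma) and was 1.33 without icKO replicate 1.

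Klf5, known from proliferating epithelium, vascular smooth muscle and early fat cell differentiation, had the lowest mean of the 10 genes in both groups, in icKO nerves level with Klf3. It was at 2.52, 2.76 and 3.47 FPKM across the control libraries against 7.74, 5.28 and 7.50 FPKM across the icKO libraries, a 2.34-fold rise. The log2 difference of 0.99 (SE 0.16, Benjamini-Hochberg adjusted p = 0.00371 by limma) understates it, because adding 1 to a low FPKM pulls the values together. With a pseudocount of 0.01 it was 1.22.

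Klf7, a factor tied to axon growth in sensory neurons, showed the tightest replicates. Its level was 8.14, 7.71 and 7.62 FPKM across the control libraries against 11.4, 11.6 and 10.9 FPKM across the icKO libraries, so neither group spread by more than a factor of 1.07. The rise was 1.44-fold, a log2 difference of 0.48 with an SE of 0.07 (Benjamini-Hochberg adjusted p = 0.00309 by limma).

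Klf3, a repressor that works through the CtBP corepressors, was at 4.99, 6.89 and 6.82 FPKM across the control libraries against 6.38, 7.36 and 6.92 FPKM across the icKO libraries. The groups overlapped, and the log2 difference of 0.13 did not pass (Benjamini-Hochberg adjusted p = 0.426 by limma), with a 95% interval of -0.17 to 0.44. Without control replicate 1 and icKO replicate 3 it was -0.0005. A noncoding gene annotated on the opposite strand, Gm20033, shares exon sequence with Klf3. It was at 1.37, 0.69 and 0.67 FPKM across the control libraries against 6.68, 5.86 and 4.29 FPKM across the icKO libraries (log2 difference 1.79, Benjamini-Hochberg adjusted p = 0.0011 by limma). Whether counting used strand is not given in the sources used here, so fragments of this pair cannot be told apart with certainty.

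The order of levels within the family differed between the groups. In control nerves Klf6 (36.3 ± 1.73 FPKM) and Klf2 (33.3 ± 4.97 FPKM) came first, then Klf9, and the ranges of these neighbours overlapped. Klf15 and Klf13 followed together at 14.7 ± 5.43 and 14.6 ± 0.86 FPKM. Below them lay Klf7, Klf4, Klf3 and Klf10, each overlapping the next, and Klf5 (2.92 ± 0.49 FPKM) stood below all of them without overlap. In icKO nerves Klf9 came first without overlap, then Klf15 (72.4 ± 12.9 FPKM), Klf2 (59.8 ± 4.26 FPKM) and Klf6 (53.2 ± 8.85 FPKM), whose neighbouring ranges overlapped. Klf13, at 38.1 ± 6.35 FPKM, kept the fifth place in both groups. Klf10 (17.0 ± 5.69 FPKM) moved from ninth to sixth place, though its range overlapped that of Klf4 (14.0 ± 1.66 FPKM). Klf7 came next, and Klf3 and Klf5 closed the order with overlapping ranges.

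Summed over the 10 genes, the level was 170, 141 and 153 FPKM across the control libraries against 385, 417 and 393 FPKM across the icKO libraries, 2.58-fold higher in icKO nerves. Klf9, Klf13 and Klf15 together made up 41.3%, 32.8% and 33.0% of this sum in control and 57.1%, 62.1% and 53.4% in icKO libraries. Their own sum had a control mean of 55.7 ± 12.9 FPKM against 230 ± 26.0 FPKM for the icKO group, and that of Klf2, Klf4 and Klf6 was 77.2 ± 4.93 and 127 ± 14.7 FPKM (SD, n = 3 each). These sums are given as a description, without a test.

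**Figure D3:**
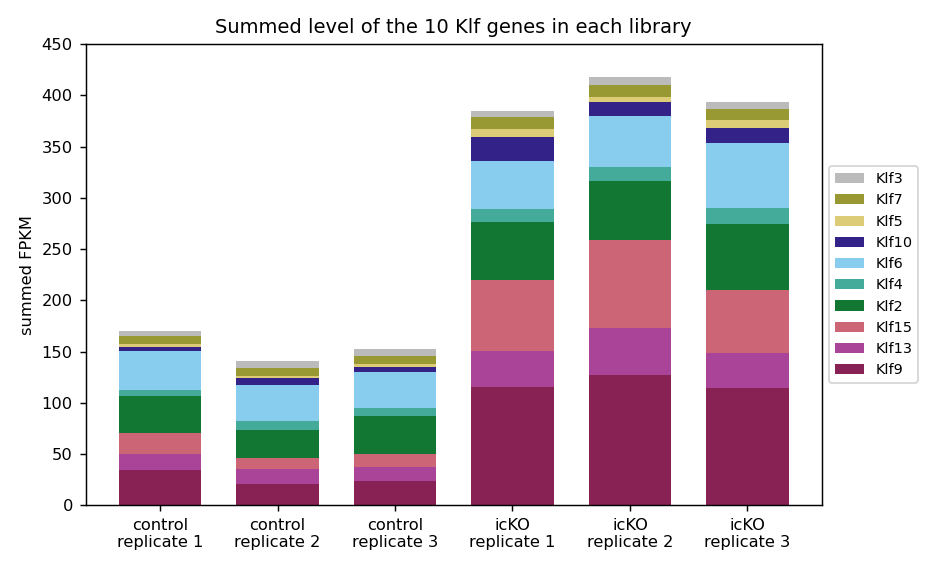
Summed FPKM of the 10 Klf genes in each library as stacked bars starting at 0, 1 colour per gene. The control bars reach 141 to 170 FPKM and the icKO bars 385 to 417 FPKM, and Klf9, Klf13 and Klf15, stacked at the bottom, fill 53.4% to 62.1% of each icKO bar.

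Of 16 other Klf and Sp genes 6 passed the filter, and 2 of these rose, where 20.8% of all tested genes did. Klf11, a relative of Klf10, was at 4.46 ± 0.33 FPKM across the control libraries against 6.19 ± 0.58 FPKM in icKO nerves (log2 difference 0.40, Benjamini-Hochberg adjusted p = 0.0152 by limma), and no longer passed without control replicate 2 or 3 (adjusted p up to 0.0627). Sp3, a ubiquitous GC-box factor, was at 11.1 ± 1.23 and 14.2 ± 0.61 FPKM (adjusted p = 0.0323). Of the 6 leave-one-out fits, each made without a single library, it kept the call only in the one without icKO replicate 3 (adjusted p = 0.0487 to 0.0885 over the 6). Sp1, Sp2, Sp4 and Klf16 did not pass. Klf17, Sp6, Sp8 and Sp9 were listed at 0 in every library, and Klf1, Klf8, Klf12, Klf14, Sp5 and Sp7 were below the filter.

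Of 14 genes for cofactors of Krüppel-like factors and for ubiquitin ligases that act on the proteins, 3 rose, 2 fell and 9 did not pass, with a median log2 difference of 0.12, while 20.8% of all tested genes rose and 22.1% fell. The number of rises was near that background. The acetyltransferase genes Kat2b and Crebbp rose, the first from 19.1 ± 0.53 to 39.8 ± 4.83 FPKM and the second from 2.36 ± 0.17 to 5.45 ± 0.90 FPKM, and the ubiquitin ligase gene Siah1a from 10.8 ± 0.13 to 22.9 ± 0.99 FPKM (Benjamini-Hochberg adjusted p = 0.0019 or less by limma). Ctbp1 and Ctbp2, the corepressors of Klf3, fell, the first from 25.5 ± 1.0 to 20.6 ± 2.17 FPKM and the second from 4.35 ± 0.20 to 3.38 ± 0.16 FPKM (adjusted p = 0.0433 and 0.0227). Ctbp1 lost the call in 5 of the 6 fits without a library, all but that without icKO replicate 3, with an adjusted p up to 0.137. Ctbp2 lost it without control replicate 2, control replicate 3 or icKO replicate 1, with an adjusted p up to 0.0926. With the replicate block, a fit with the replicate number as a factor, neither fell.

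Among genes upstream of the family, hormone receptors, TGF-beta signalling, the ERK5 and MEF2 route and the serum response factor, 6 of 18 tested rose, 1 fell and 11 did not pass, with a median log2 difference of 0.01, beside the 20.8% of all tested genes that rose and the 22.1% that fell. Only 2 rose without control replicate 1, without control replicate 3 or without both muscle-rich libraries. Those without control replicate 3 were Tgfbr1 and Creb1 (log2 difference 1.19, Benjamini-Hochberg adjusted p = 0.0103 by limma). With all libraries Creb1 did not pass (0.68, adjusted p = 0.228). Without icKO replicate 1 or icKO replicate 3 the number that fell was 2, with Mrtfa and Smad2 respectively as the added gene. The gene that fell was Nr3c1, the glucocorticoid receptor, from 18.5 ± 1.84 to 10.4 ± 3.01 FPKM (log2 difference -0.80, Benjamini-Hochberg adjusted p = 0.0195 by limma), a call lost without control replicate 2 or 3 (adjusted p up to 0.0646). Of the genes of the TGF-beta pathway, which induces Klf10, the receptor gene Tgfbr1 rose from 5.77 ± 0.75 to 9.52 ± 0.50 FPKM (adjusted p = 0.00397). Tgfbr2 rose from 27.2 ± 2.16 to 39.6 ± 5.88 FPKM (adjusted p = 0.0175), but not without control replicate 1 or 3 (adjusted p up to 0.0555 over the fits without a library, and 0.0967 without both muscle-rich libraries). The remaining rises were those of Mef2a, Mef2d, Map2k5 and Smad4, each of which also lost the call in 2 to 4 of the 6 leave-one-out fits. Other TGF-beta genes did not pass with all libraries. They were the ligand gene Tgfb1 (log2 difference -0.16, adjusted p = 0.371), Smad2 (-0.28, adjusted p = 0.083) and Smad3 (-0.03, adjusted p = 0.877).

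Genes that share the known regulation of the 2 classes were set beside them. Of 16 genes known to respond to glucocorticoid or related hormones, 15 passed the filter and all 15 rose, where 20.8% of all tested genes did, with a median log2 difference of 2.09; Tat was below the filter. All 15 also rose whichever library was left out and without both muscle-rich libraries. The list was drawn up knowing earlier results of these data and is no independent evidence of a direction. The largest differences in it were those of the metallothionein genes Mt2 and Mt1 (4.31 and 3.52) and of Hif3a (3.50), and the smallest that of Errfi1 (0.82). Klf9 and Klf15 lay close to the median of the list and Klf13 below it.

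Of 24 immediate early genes 22 passed the filter, of which 12 rose while 10 stayed short of the threshold, with a median log2 difference of 0.80, beside the 20.8% of all tested genes that rose and the 22.1% that fell. When a library was left out 8 to 12 rose. Without both muscle-rich libraries 9 rose and Ier5 fell, as it did without either of them alone (log2 difference -0.55 with all libraries, where it did not pass). Fosl2, an AP-1 subunit, rose from 3.88 ± 0.53 to 22.2 ± 3.33 FPKM, Junb, another, from 4.61 ± 1.03 to 27.9 ± 19.4 FPKM, and Zfp36, an mRNA decay factor that is also hormone-responsive, from 7.76 ± 0.43 to 30.3 ± 5.87 FPKM (Benjamini-Hochberg adjusted p = 0.00942 or less by limma). Egr1 and Jun, named for contrast after their values were seen, did not pass, at 4.06 ± 1.88 and 10.4 ± 10.1 FPKM and at 16.0 ± 2.30 and 19.2 ± 9.15 FPKM. Klf2, Klf4 and Klf6, with differences of 0.83, 0.81 and 0.53, lay near the median of the list for Klf2 and Klf4 and below it for Klf6. Dusp1 belongs to both lists. Of the hormone-induced list, Pdk4 is also among the Klf15 targets below and Cebpd among the regulators of adipogenesis, so their rises are counted in each.

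**Figure D4:**
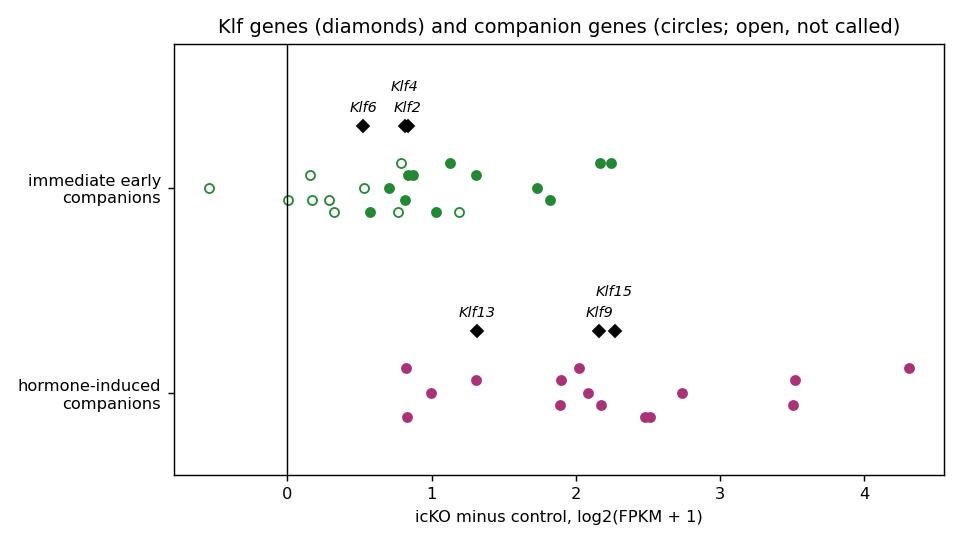
Differences between icKO and control nerves on the log2(FPKM + 1) scale for 15 hormone-induced and 22 immediate early companion genes (circles, filled where called) and for the Klf genes of each class (black diamonds); the vertical position within a row carries no value. All hormone-induced circles are filled and lie at 0.82 or above, while the immediate early circles spread from -0.55 to 2.25.

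Of the genes described as targets of the members, some rose and some fell. The lists do not separate targets described as induced from those described as repressed, so a fall is not in itself against the described regulation. Among 8 tested endothelial genes described as targets of Klf2 or Klf4, S1pr1, a sphingosine phosphate receptor, rose from 7.44 ± 1.51 to 15.0 ± 0.52 FPKM (Benjamini-Hochberg adjusted p = 0.00261 by limma). Cav1, the caveolin gene, fell from 24.9 ± 4.43 to 15.6 ± 1.82 FPKM (adjusted p = 0.0146), though not without control replicate 2 (adjusted p = 0.0517) or without both muscle-rich libraries (adjusted p = 0.0774). The other 6, with Nos3 and Thbd among them, did not pass, and 20.8% of all tested genes rose while 22.1% fell. Nos3, the endothelial nitric oxide synthase gene (log2 difference 0.34, adjusted p = 0.0609), passed as a second rise without control replicate 2 (adjusted p = 0.0449) and with the median-of-ratios and quantile scalings (adjusted p = 0.0362 and 0.0418). Of 11 tested metabolic genes described as Klf15 targets 6 rose, 3 fell and 2 passed neither way (median log2 difference 0.39), against the same background. Pdk4, a brake on pyruvate oxidation, rose from 6.71 ± 2.36 to 41.1 ± 5.71 FPKM, and Prodh, which starts the breakdown of proline, from 2.25 ± 0.51 to 9.98 ± 3.28 FPKM (adjusted p = 0.000698 and 0.00178). Pcx, pyruvate carboxylase, fell from 32.4 ± 5.90 to 9.69 ± 1.02 FPKM, and Gpt and Bckdk, of amino acid breakdown and its control, fell too (adjusted p = 0.0107 or less). Of the 6 rises, those of Kcnip2, Angptl4 and Bckdha each lost the call in 4 of the 6 leave-one-out fits, with 3 to 5 rises left in those fits.

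Several members act in fat cell differentiation. Of 9 tested regulators of adipogenesis 4 rose, 2 fell and 3 did not pass, with a median log2 difference of 0.01, where 20.8% of all tested genes rose and 22.1% fell. Without control replicate 1 the number that fell was 4, with Cebpa (log2 difference -0.69, Benjamini-Hochberg adjusted p = 0.018 by limma) and Ebf2 (-0.86, adjusted p = 0.0105) added. With all libraries their differences were -0.52 and -0.53 (adjusted p = 0.0553 and 0.179). Without icKO replicate 3 the number was 3, with Cebpa added, and 1 without control replicate 2, control replicate 3 or icKO replicate 2. The early factor genes Cebpd and Cebpb rose, the first from 7.97 ± 0.78 to 33.1 ± 10.1 FPKM and the second from 5.53 ± 0.70 to 15.0 ± 6.74 FPKM (Benjamini-Hochberg adjusted p = 0.0124 or less by limma). Pparg, the master regulator of the mature fat cell, fell from 4.51 ± 0.22 to 1.91 ± 0.40 FPKM (adjusted p = 0.00174). Zfp423, of the preadipocyte, fell from 1.55 ± 0.13 to 0.90 ± 0.21 FPKM (adjusted p = 0.0269), but lost the call in 3 of the 6 fits without a library (those without control replicate 2, control replicate 3 or icKO replicate 2, adjusted p up to 0.0878).

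Markers of cell types that make these factors moved with the groups in part, where 20.8% of all tested genes rose and 22.1% fell. All 8 adipocyte markers fell, and their summed level was 488 to 592 FPKM across the control libraries against 108 to 181 FPKM across the icKO libraries. Of 10 endothelial markers, cells in which Klf2 and Klf4 are prominent, Pecam1 rose, Kdr, Cldn5 and Tie1 fell and 6 did not pass, and their sum was 123 to 127 FPKM across the control libraries against 98.6 to 115 FPKM across the icKO libraries. Of 8 fibroblast markers 4 fell and 1 rose, with a sum of 942 to 1730 FPKM across the control libraries against 781 to 788 FPKM across the icKO libraries, and of 8 mural cell markers 3 fell, with sums of 170 to 239 and 107 to 145 FPKM. The 7 tested macrophage markers did not pass, with sums of 101 to 218 and 109 to 115 FPKM over all 9. Of 7 Schwann cell markers 1 rose, 2 fell and 4 did not pass, with sums of 11599 to 13803 and 13141 to 15359 FPKM. Most of each sum was Pmp22, which did not pass, at 10046 ± 1047 and 11569 ± 1152 FPKM. The shares called among endothelial and Schwann cell markers were near the 42.9% called over all tested genes. Of 6 tested neuronal markers 4 rose (Nefl, Nefm, Nefh and Prph), while Stmn2 and Tubb3 did not pass. The sum over all 9 was 14.7 to 15.5 FPKM across the control libraries against 31.4 to 43.1 FPKM across the icKO libraries. The neurofilament genes Nefl (2.10 to 12.6 FPKM), Nefh (3.02 to 11.1 FPKM) and Nefm (1.14 to 4.43 FPKM, control and icKO means) carried most of the change. Snap25, below the filter, was lower in icKO nerves, at 0.43 ± 0.04 and 0.29 ± 0.11 FPKM. The 5 blood genes did not pass. Of the keratinocyte markers, a cell type rich in Klf4 and Klf5, Dsp and Krt14 were listed at 0 throughout and the sum over 6 genes did not exceed 2.01 FPKM in any library. The part of cell composition in the Klf differences was not tested.

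For each member that rose, the 3 tested genes with the most similar profile were sought, by the smallest root mean square difference of log2(FPKM + 1) values centred on each gene's own mean over the 6 libraries. Klf9 and Klf15 shared their nearest genes. Hhatl (difference 0.11) and Txnip (0.14) came first for Klf9, and Txnip (0.13) and Hhatl (0.13) for Klf15, followed by Pdgfc (0.15) and Ip6k2 (0.20). Txnip, which encodes a thioredoxin-binding arrestin, rose from 40.1 ± 13.0 to 197 ± 26.6 FPKM. The nearest genes of Klf13 were Parn (0.04), Fnbp4 (0.05) and Nop53 (0.06), and those of Klf10 were Ms4a4a (0.16), Zim1 (0.18) and Anxa8 (0.19). For Klf2 they were Gm14303, Ss18l2 and Tcf7 (0.07 to 0.09), for Klf4 Wdr26, Rev3l and Nr2c2 (0.06 to 0.08), and for Klf6 Lzts2, Ttll11 and Adamts20 (0.04 to 0.05). For Klf5 they were Anp32e, Irf2bp2 and Slc6a7 (0.10 to 0.11), and for Klf7 Brf1, Tnfaip8l1 and Dcaf6 (0.02 to 0.03). Small distances are easier to reach for genes with a small difference between groups, so the values rank genes within a member only.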

How the data were processed

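The authors deposited FPKM values for 55335 Ensembl gene IDs in 6 libraries, 3 per group. The tools named in the submitters' processing notes, with no role stated, are DESeq2 1.16.1, StringTie 1.3.1c, STAR and FastQC 0.11.2, and the build is GRCm39. Not given in the sources used here are the annotation release, the strand setting and how multiply matching reads were handled. Symbols came from GENCODE M21 (GRCm38), matched by gene ID for 55154 IDs. Sequences came from the RefSeq promoter table of GRCm38.p6.

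Differences of log2(FPKM + 1) were tested with limma 3.58.1 in R 4.3.3 (two-sided moderated test, variance trend, no covariate). The 12860 genes averaging 1 FPKM or more entered, with Benjamini-Hochberg adjustment over all of them. Rose and fell mean an adjusted p under 0.05. Folds are ratios of mean FPKM. FPKM hold no counts, so depth was estimated from genes with 1 transcript and FPKM under 0.3. The procedure was tested on simulated data. Same-numbered libraries did not deviate together (correlations -0.10, 0.04 and -0.05), so they were not treated as pairs.

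The members and lists were chosen with earlier results of these data known. Named genes are the members and the 3 tested genes with a symbol, outside the members, nearest in profile to each member that rose. From each list they are the 3 called genes with the largest difference and up to 3 called genes that moved against its majority. Other genes were named after their values were seen. One Schwann cell marker of the lists is not reported here and was left out of their sums. The alternatives were other pseudocounts, filters and scalings, a replicate block, other limma settings, a muscle covariate, an adjusted p of 0.1 and leaving out libraries.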

Additional observations from a re-analysis of the deposited data

How the results depend on the processing

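Of the 10 members, 8 kept their direction and their side of the threshold under all alternatives that could be run (20 each, and 19 for Klf5, which a filter at a mean of 5 FPKM removed). Over these, Klf9 differed by 2.03 to 2.38, Klf15 by 2.06 to 2.64, Klf13 by 1.18 to 1.43, Klf10 by 1.33 to 1.76, Klf5 by 0.85 to 1.22, Klf2 by 0.71 to 0.92, Klf4 by 0.59 to 0.93 and Klf7 by 0.46 to 0.53 on the log2 scale. Klf6 (0.40 to 0.67 over all alternatives, and 0.40 to 0.61 with single libraries left out) no longer passed without control replicate 2 (0.50) or 3 (0.51), and Klf3 went from 0.13 to -0.0005 without both muscle-rich libraries, not called in either case. The cause was not tested. With single libraries left out 8 or 9 members rose, and with the replicate block 9. With the block 4596 genes were called, against 5516 in the reported fit. With the filter at a mean of 5 FPKM, which tests fewer genes, 3308 were called, 1696 higher and 1612 lower. Leaving out single libraries gave 3750 to 5458 calls, 1838 to 2558 of them higher and 1912 to 2900 lower. Over the companion lists, with 6 to 22 tested genes each, the number of genes called was 55, and 38 to 55 with single libraries left out. A gene in several lists was counted once here. In the reported fit 42.9% of all tested genes were called. Scalings moved the median of all genes by less than 0.1. Depth is unknown beyond its estimate, and low genes such as Klf5 rest on fewer fragments.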
